A study of Mus musculus with 4 samples.

Results

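The Gadd45 family comprises 3 genes, Gadd45a, Gadd45b and Gadd45g, which were found by their symbols among the 31053 genes of each expression matrix. They were measured by single-cell RNA sequencing (scRNAseq) of brain vascular-associated cells, that is, endothelial cells (EC) and the cells around them. These were captured from adult male wild-type C57BL/6 mouse brain with magnetic beads coated with antibodies to the endothelial protein CD31. Collagenase was used on the chopped brain before this capture and again after it. In chronic social defeat (CSD), a mouse lived for 14 days behind a partition in the cage of an aggressive CD-1 mouse and met it each day without the partition. In the home cage (HC) condition, mice also lived for 14 days beside a CD-1 mouse, but the partition between them was never removed. Each of the 4 libraries, CSD 1, CSD 2, HC 1 and HC 2, was made from the pooled cells of several mice of 1 condition, so n = 2 libraries per condition, and neither individual mice nor behaviour can be separated.

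The Gadd45 proteins are small nuclear proteins without enzyme activity of their own that act by binding others. They bind and activate the kinase Map3k4, which feeds the p38 and JNK stress kinases, they bind the mitotic kinase Cdk1, the replication clamp Pcna and the cell cycle inhibitor Cdkn1a (p21), and they have been linked to DNA demethylation with Tdg and the Tet enzymes. Gadd45a is a classical p53 target, Gadd45b is known as a target of NF-kappaB, and Gadd45g responds to cytokines and growth arrest. All of them are known as genes that many kinds of stress induce quickly, which can include the stress of cell isolation.

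The members were measured in 14415 cells, between 2553 and 4934 per library, from matrices that held between 27297599 and 30361474 unique molecular identifiers (UMIs, tags that count captured mRNA molecules). A cell was placed in a class by its marker genes, none of which is a member, and 12837 cells (89.1%) were placed. Levels are given as CPM, the usual scaling of a gene's UMIs to all UMIs of its class, and a difference between CSD and HC is a log2 fold change with its standard error (SE). The class names stand for cells with those markers and are to be read as EC-like, microglia-like and so on. The EC marker Cldn5 was at 2787 CPM in EC and 20.5 CPM in the other classes. The library CSD 2 stood apart in its UMIs summed over all barcodes, whether cells or not. Its chi-square per degree of freedom over all genes was 229 to 299 against the others, compared with 21.7 to 40.6 among the others. This value takes in free RNA and the mix of classes, and was not computed within a class. CSD 2 had a median of 8379 UMIs per arterial smooth muscle cell (SMC) and 5043 per microglial cell, more than any other library. In EC its median was 1431, under the 1520 of HC 1, and over all cells 1908, under the 2357 of HC 1. Only 32.6% of its UMIs lay in cells, against 51.8% to 56.8% in the others. Free RNA, read from barcodes with 1 to 100 UMIs, held 3.71 to 6.67 CPM of Gadd45a, 67.6 to 93.1 CPM of Gadd45b and 56.5 to 104 CPM of Gadd45g. These values are the make-up of such barcodes, and how much free RNA entered a cell was not measured. Ttr of the choroid plexus was at 23328 to 139969 CPM in free RNA and 835 to 10443 CPM in EC. A level under that of free RNA is thus not by itself a background level.

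Gadd45a lies on chromosome 6 (67035096 to 67037457, minus strand), Gadd45b on chromosome 10 (80930073 to 80932204, plus strand) and Gadd45g on chromosome 13 (51846678 to 51848468, plus strand) of the mouse genome build GRCm38. Because the members differed in where they were expressed, the promoter sequences are shown, each as the 200 bases that end 50 bases before the RefSeq transcription start, on the strand of the gene (RefSeq, GRCm38.p6), at chr6:67037458-67037657 for Gadd45a, chr10:80929841-80930040 for Gadd45b and chr13:51846425-51846624 for Gadd45g. Capitals mark the CCAAT box (CCAAT), the octamer (ATTTGCAT) and the E-box (CACGTG), searched on both strands, and the E-box reads the same on both.
Gadd45a: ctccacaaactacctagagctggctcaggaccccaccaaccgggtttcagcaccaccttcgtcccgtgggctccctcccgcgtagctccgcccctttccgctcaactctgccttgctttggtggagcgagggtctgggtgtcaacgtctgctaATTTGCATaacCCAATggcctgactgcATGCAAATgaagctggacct
Gadd45b: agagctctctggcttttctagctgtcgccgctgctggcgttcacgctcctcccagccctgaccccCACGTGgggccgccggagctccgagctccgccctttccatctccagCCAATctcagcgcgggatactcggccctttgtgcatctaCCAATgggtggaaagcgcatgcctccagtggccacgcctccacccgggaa
Gadd45g: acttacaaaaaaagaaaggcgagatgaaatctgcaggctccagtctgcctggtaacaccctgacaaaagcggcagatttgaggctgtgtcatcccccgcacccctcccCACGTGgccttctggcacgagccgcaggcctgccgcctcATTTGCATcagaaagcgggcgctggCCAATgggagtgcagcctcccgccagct
The octamer stood in the Gadd45a window on each side of a CCAAT box, beginning 97 and 70 bases before the start, and in the Gadd45g window 103 bases before it. It was not in the Gadd45b window, and 1.32% of 32851 mouse promoter windows of this length held it. The Gadd45b window held CCAAT boxes 139 and 100 bases before the start, Gadd45a held a box at 86 and Gadd45g at 78, and 28.4% of all windows held at least 1. The E-box was in the windows of Gadd45b and Gadd45g, 185 and 142 bases before the start, and in 4.34% of all windows. The CRE half-site (TGACG), the AP-1 site (TGANTCA), the TATA box (TATAAA), the kappaB site, the p53 half-site and the serum response element were in no member's window, against shares of 12.7%, 5.57%, 9.14%, 4.70%, 5.82% and 1.16% of all windows. The 50 bases next to the start were not searched, so a TATA box or any other site there could not be found. These are matches of letters in a short window and say nothing of binding.

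Gadd45b was highest in arterial SMC and microglia and lowest in astrocytes and choroid plexus cells. In arterial SMC its level was 823 and 978 CPM in CSD 1 and CSD 2 and 1113 and 860 CPM in HC 1 and HC 2. In microglia it was 961 and 1084 CPM in CSD and 922 and 732 CPM in HC. These ranges overlapped, and both classes lay above every other class with at least 10 cells in each library. Ependymal cells followed with 447, 95.4, 210 and 195 CPM (CSD 1, CSD 2, HC 1 and HC 2), then EC with 277, 96.1, 247 and 97.3 CPM, and T cells with 210, 100.1, 185 and 102 CPM, and these 3 classes overlapped each other. In EC both libraries numbered 1 were above both libraries numbered 2, whatever the condition. Pericytes held 86.4, 108, 20.8 and 58.9 CPM, choroid plexus cells 11.2 to 20.4 CPM, and astrocytes 0 to 14.9 CPM, from 5 UMIs in all. The astrocyte and choroid plexus levels lay under the free RNA level in 4 of 4 libraries, and the pericyte level in 3 of 4. Set against EC in the same libraries (edgeR quasi-likelihood test with library as a block, Benjamini-Hochberg adjusted over all genes), Gadd45b was higher in microglia by 2.83 ± 0.22 (log2 fold change ± SE, adjusted p = 7.68e-17, 63.8% of 10082 genes called) and in arterial SMC by 2.68 ± 0.22 (adjusted p = 1.95e-15, 47% of genes called). It was lower in choroid plexus cells (-2.71 ± 0.24, adjusted p = 4.90e-15, 77.5% called) and in astrocytes (adjusted p = 1.39e-07, 43.4% called), where the ratio of UMIs was 0.0589 of EC (95% counting interval 0.0191 to 0.138). Pericytes were lower too (-1.34 ± 0.35, adjusted p = 0.00166, 30.3% called), but not without HC 1 (-0.82, adjusted p = 0.111). The values for ependymal cells (0.37 ± 0.24, adjusted p = 0.174, 62.1% called) and T cells (-0.51 ± 0.39, adjusted p = 0.335, 35.4% called) did not pass the threshold of 0.05. Because so many genes differ between classes, a call here says little about the member itself, and the size is the more useful value. The median of all genes lay between -0.19 and -0.01 in these comparisons, and at -1.03 for T cells. Scaling by the RLE method in place of TMM (a trimmed mean of the genes) moved that median by 0.42 for astrocytes, 0.40 for T cells, 0.25 for pericytes, 0.16 for ependymal cells and -0.14 for microglia, and with RLE Gadd45b in ependymal cells passed (0.54, adjusted p = 0.0464).

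Gadd45g had another order, with arterial SMC and ependymal cells at the top and T cells at the bottom. In arterial SMC its level was 476, 551, 397 and 384 CPM in CSD 1, CSD 2, HC 1 and HC 2, and in ependymal cells 354, 290, 420 and 260 CPM, ranges that overlapped. EC followed with 253, 124, 168 and 125 CPM, choroid plexus cells with 142, 167, 139 and 159 CPM, astrocytes with 97.1, 149, 79.2 and 151 CPM, and microglia with 141, 52.4, 184 and 57.9 CPM. Each of these 4 classes overlapped the next, and all EC libraries lay below all ependymal libraries. In microglia the libraries numbered 1 were again above both numbered 2, and the latter lay under their free RNA level. Pericytes held 12.3 to 41.2 CPM, below the free RNA in 4 of 4 libraries. T cells gave 1 UMI of Gadd45g among 230391, in HC 1, and the ratio to EC was 0.0259 (95% counting interval 0.000656 to 0.145), whereas their 32 UMIs of Gadd45b gave a ratio of 0.779 (0.531 to 1.10). Such intervals cover counting error only. Against EC, Gadd45g was higher in arterial SMC (1.65 ± 0.21, edgeR adjusted p = 1.47e-09), ependymal cells (1.01 ± 0.22, adjusted p = 8.50e-05) and choroid plexus cells (0.69 ± 0.20, adjusted p = 0.00172), and lower in pericytes (-2.75 ± 0.44, adjusted p = 7.26e-07) and T cells (adjusted p = 3.64e-06). Astrocytes (-0.34 ± 0.33, adjusted p = 0.431, and 0.10 with RLE scaling) and microglia (-0.31 ± 0.20, adjusted p = 0.185) did not pass. Without HC 1 the microglia were lower than EC (-0.69, adjusted p = 0.00537). For choroid plexus cells plain CPM and the fit differed in direction, since their mean level, 152 CPM, was below that of EC, 167 CPM, while the value fitted with TMM was above it. RLE scaling in place of TMM moved the median of all genes there by only -0.03. Ttr alone held 303776 to 317103 CPM in these cells, and CPM counts it in the total, so CPM there reads low beside other classes.

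Gadd45a was scarce in every class, which limits what can be seen. Arterial SMC held 30.1, 27.1, 28.2 and 23.8 CPM in CSD 1, CSD 2, HC 1 and HC 2, from 68 UMIs in 492 cells, and ependymal cells 15 to 28.4 CPM. EC held 28.1, 17.0, 20.8 and 14.0 CPM and microglia 30.2, 6.33, 29.9 and 8.85 CPM. Neighbouring classes overlapped throughout the order. Choroid plexus cells held 2.37 to 7.63 CPM, and were lower than EC (-1.42 ± 0.25, edgeR adjusted p = 1.30e-06), the only called difference of Gadd45a from EC. T cells, astrocytes and pericytes gave 3, 2 and 7 UMIs in all. In 11 of 21 comparisons of a member with EC the test was passed, against 30.3% to 77.5% of all genes per class, and DESeq2 called 11 as well.

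**Figure D1:**
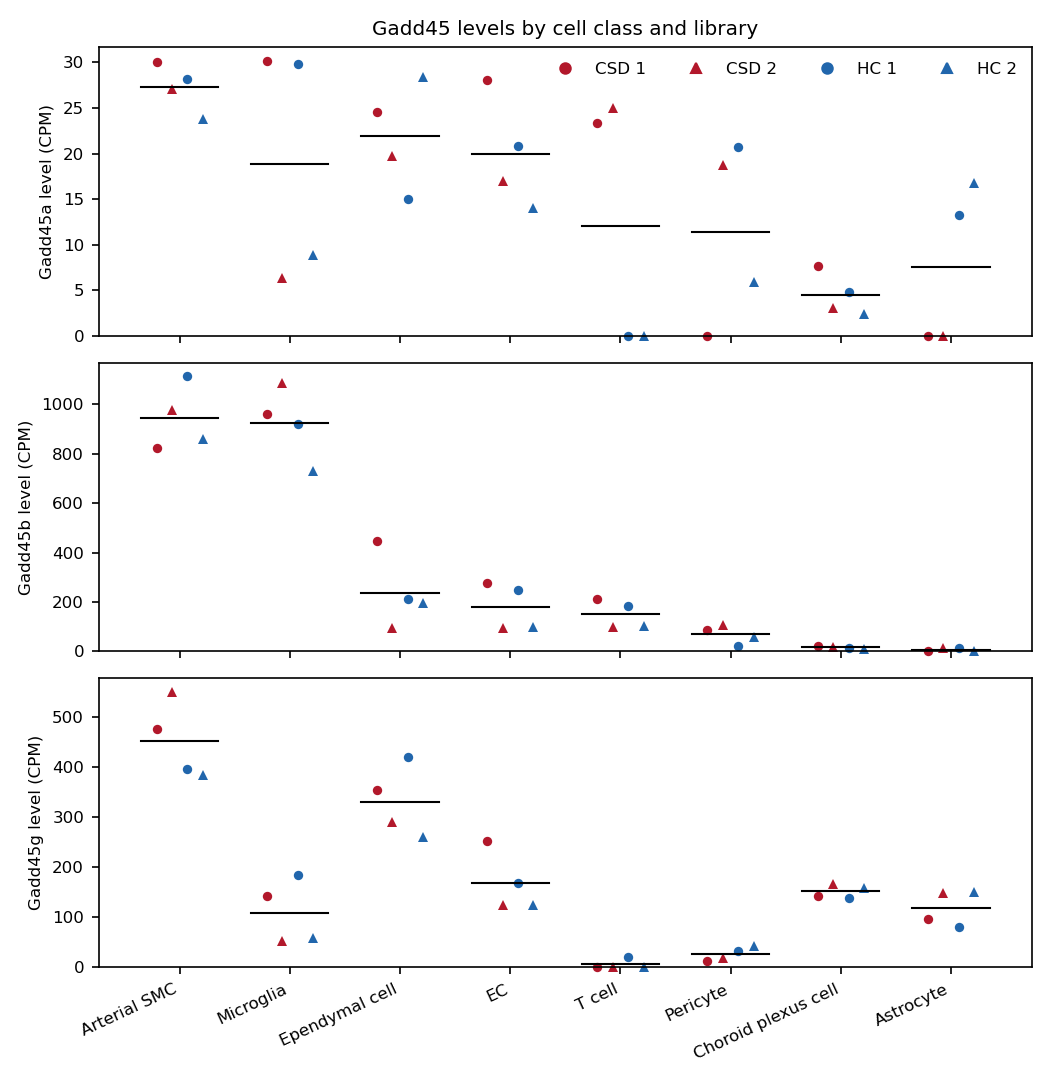
Level of each Gadd45 gene (CPM, linear axis from 0) in the 8 cell classes with at least 10 cells in every library. Each point is a library (red CSD, blue HC, circles number 1, triangles number 2) and each line the mean of 4 libraries. Gadd45b stands at 732 to 1113 CPM in arterial SMC and microglia, Gadd45g at 260 to 551 CPM in arterial SMC and ependymal cells, and Gadd45a never exceeds 30.2 CPM.

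The make-up of the family differed between classes. A UMI counts a molecule at its 3' end, so shares of UMIs between members need no scaling by length. In microglia Gadd45b made up 88.1% ± 6.25 of the Gadd45 UMIs (SD, n = 4 libraries), and in T cells 90% ± 8.16. The T cell share rests on 3, 32 and 1 UMIs of Gadd45a, Gadd45b and Gadd45g. In choroid plexus cells and astrocytes Gadd45g made up 88.3% ± 3.67 and 89.0% ± 10.4, although the astrocyte level of Gadd45g lay under that of free RNA in CSD 1 and HC 1. EC were nearly evenly divided between Gadd45b (47.0% ± 7.68) and Gadd45g (47.3% ± 6.75). Free RNA was divided much alike, with 335 and 375 UMIs of Gadd45b and Gadd45g in CSD 1 and 237 and 198 in CSD 2. It held 382 and 426 of them in HC 1, and 262 and 335 in HC 2. In arterial SMC Gadd45b held 66.3% ± 4.83 and in ependymal cells Gadd45g 58.3% ± 12.7. The 3 members together came to 1423 ± 146 CPM in arterial SMC, 1052 ± 169 CPM in microglia and 106 ± 30.0 CPM in pericytes, the lowest sum of the 8 classes. Pericytes and arterial SMC, both mural cells of the vessel wall, were thus at the ends of the range.

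**Figure D2:**
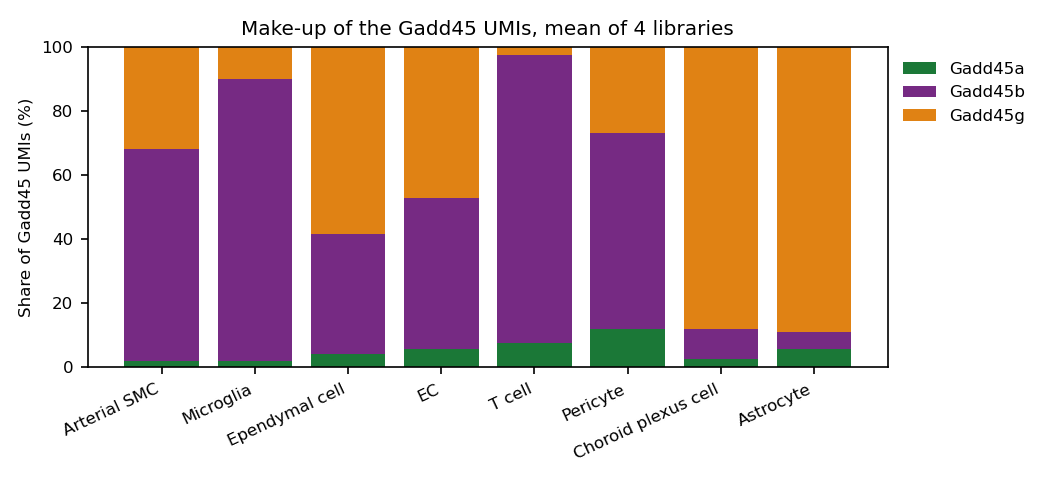
Share of the Gadd45 UMIs (%) that belongs to each member in 8 cell classes, as the mean of 4 libraries. Gadd45b makes up 88.1% in microglia and Gadd45g 88.3% in choroid plexus cells, while EC hold 47.0% and 47.3% of these members.

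Classes with fewer than 10 cells in some library were not tested. Fibroblasts, 70 cells in all, held 774, 2765, 1420 and 888 CPM of Gadd45b in CSD 1, CSD 2, HC 1 and HC 2, from 250 UMIs, a range that reached above that of arterial SMC. Neutrophils held Gadd45a at 515 CPM in CSD 1 and 411 CPM in HC 2, from 7 and 5 UMIs, with none in CSD 2 and no such cell in HC 1. B cells held 493 CPM in CSD 1, from 2 UMIs, and 102 CPM in HC 2, from 3 UMIs. In the classes and EC subclasses with at least 10 cells in every library Gadd45a reached 40.9 CPM at most, but counts this small give no firm order. B cells gave 0 UMIs of Gadd45g in 4 of 4 libraries.

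Across the 8 class means, on the scale of log2 (CPM + 10), the 5 genes of 7012 most like Gadd45a were Ripk1 (Pearson r = 0.953), Ehbp1l1 (0.948), Nr4a1 (0.945), Socs3 (0.921) and Klf2 (0.920). For Gadd45b they were Sfr1 (0.972), Csrnp1 (0.961), Ppp1r15a (0.952), Dyrk1a (0.95) and Mapre1 (0.936). Ppp1r15a is itself a growth arrest and DNA damage gene, also named Gadd34, that restarts translation after stress. For Gadd45g they were 1500011K16Rik (0.966), Rhoq (0.909), 4833439L19Rik (0.903), Nacc2 (0.898) and March8 (0.867). Gadd45a and Gadd45b were alike (r = 0.893), and Gadd45g was less like Gadd45a (0.438) and Gadd45b (0.262). The 8 classes come from the same 4 libraries and the genes named are the highest of 7012, so these values are a description. Pearson r leaves out the size of a difference. Over the class means Sfr1 ran from 151 to 342 CPM, and Gadd45b from 7.02 to 944 CPM. The Gadd45a means of T cells, astrocytes and pericytes rest on 3, 2 and 7 UMIs.

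Within EC, the members differed along the vessel tree. EC were divided by arterial, venous and capillary markers into 551, 447 and 2086 cells, out of 4930. The rest met the rule of none of these groups and were left out of the comparisons between them. The arterial and venous groups were led by their own markers, for example Gkn3 and Bmx, or Slc38a5 and Vwf, with the immune response genes Lcn2, Icam1, Vcam1 and Cxcl1 also leading the venous group. The group with capillary markers was defined mostly by lacking the other markers. Its own markers were 1.42 to 2.28 times their level in the arterial and venous EC together. Only 1 of its own markers was among its 10 leading genes. These also held Ttr and 1500015O10Rik, which were leading genes of choroid plexus cells, and Plvap, a marker of fenestrated EC in the paper. The group is therefore called EC with capillary markers here. Gadd45g was at 394, 250, 283 and 386 CPM in arterial EC (CSD 1, CSD 2, HC 1 and HC 2), against 134, 94.6, 67.8 and 54.2 CPM in EC with capillary markers and 132, 58.5, 114 and 98.6 CPM in venous EC. Every arterial library lay above every library of the venous EC and of the EC with capillary markers. The latter lay under the free RNA level in HC 1 and HC 2. Gadd45g was thus higher in arterial EC than in EC with capillary markers by 1.92 ± 0.15 (edgeR adjusted p = 1.19e-18, 18.9% of 6375 genes called), while venous EC did not pass (0.19 ± 0.20, adjusted p = 0.668, 9.93% of genes called). Gadd45b was at 336, 124, 331 and 201 CPM in arterial EC, 430, 153, 350 and 126 CPM in venous EC and 136, 61.5, 184 and 73.6 CPM in EC with capillary markers. In each library it was higher in both than in EC with capillary markers, by 1.15 ± 0.14 (adjusted p = 3.41e-10) in arterial and 1.26 ± 0.15 (adjusted p = 9.53e-11) in venous EC. Gadd45a did not pass in either (0.51 ± 0.36, adjusted p = 0.370, and -0.01 ± 0.43, adjusted p = 0.993). The median depth was 1467 to 2950 UMIs per cell in arterial EC and 780 to 1068 in EC with capillary markers, and the summed level of the immediate-early list was 20512 to 34432 CPM and 12428 to 22644 CPM. The part of either in the difference was not tested.

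**Figure D3:**
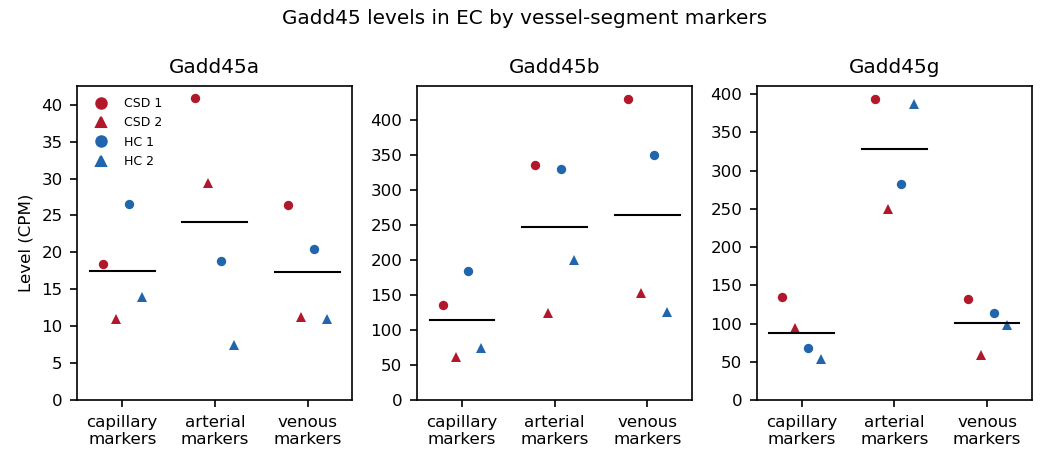
Level of each Gadd45 gene (CPM, linear axes from 0) in EC divided by capillary, arterial and venous markers. Each point is a library (red CSD, blue HC, circles number 1, triangles number 2) and each line the mean of 4 libraries. Gadd45g stands at 250 to 394 CPM in arterial EC and at most at 134 CPM in the other groups, while Gadd45b is higher in arterial and in venous EC.

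No change of a member between CSD and HC passed the test in any class. In microglia the Gadd45b levels of both CSD libraries, 961 and 1084 CPM, lay above those of HC, 922 and 732 CPM, but the difference (0.36 ± 0.29, edgeR adjusted p = 1.0, 0% of 9887 genes called) was about as large as its error. In EC the values were 0.43 ± 0.33 for Gadd45a (adjusted p = 0.828, 0.0885% of 10164 genes called), 0.18 ± 0.52 for Gadd45b (adjusted p = 0.962) and 0.43 ± 0.32 for Gadd45g (adjusted p = 0.817). The sign for Gadd45b in EC turned without CSD 1 (-0.81) and without HC 2 (-0.36). In microglia Gadd45a (-0.06 ± 0.72) and Gadd45g (-0.29 ± 0.59) differed by less than their error, and both turned positive without CSD 2 (0.60 and 0.20) or without HC 1 (1.02 and 0.72). The difference between the CSD effect in microglia and in EC was 0.21 ± 0.59 for Gadd45b, -0.56 ± 0.46 for Gadd45a and -0.61 ± 0.37 for Gadd45g, with adjusted p = 1.0 for each (0% of 11331 genes called).

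Of 24 tests of a member in a class or EC subclass, edgeR called 0, with 4 at an unadjusted p under 0.05, and DESeq2 called 0, with 1 at an unadjusted p under 0.05. DESeq2 gave no adjusted p to 5715 of 10164 genes in EC and 5286 of 6991 in EC with capillary markers. In venous EC it gave none to 2849 of 5067, and members in these groups may have had none. The strongest by edgeR was Gadd45g in EC with capillary markers, at 134 and 94.6 CPM in CSD and 67.8 and 54.2 CPM in HC, a difference of 0.96 ± 0.27 that did not pass (adjusted p = 0.216, 0.172% of 6991 genes called). Both HC values lay under the free RNA level, 104 and 86.7 CPM, which is the make-up of free RNA and not its amount in a cell. Without CSD 2 the value was 1.24 (adjusted p = 0.00165), but this sets a single CSD library against both HC libraries, whose spread alone is then used and is assumed to hold for CSD 1. Gadd45a in arterial EC was at 40.9 and 29.5 CPM in CSD and 18.8 and 7.43 CPM in HC, from 40 UMIs (1.30 ± 0.52, adjusted p = 0.778, 0.0684% of 5846 genes called). Gadd45b in pericytes was at 86.4 and 108 CPM against 20.8 and 58.9 CPM, from 42 UMIs (1.18 ± 0.52, adjusted p = 0.942, 0.0412% of 2426 genes called). In choroid plexus cells it was at 20.4 and 15.9 CPM against 14.9 and 11.2 CPM (0.50 ± 0.22, adjusted p = 1.0, 0.0173% of 11588 genes called), under the free RNA level in each library. In these 4 cases the libraries of the conditions did not overlap. Gadd45g in arterial SMC did not overlap either, with 476 and 551 CPM in CSD and 397 and 384 CPM in HC, and did not pass (0.38 ± 0.18, adjusted p = 1.0, 0% of 6542 genes called). With 2 libraries against 2, non-overlap reaches no less than p = 0.333 in an exact two-sided permutation test. How many of all genes separate in this way was not counted. In EC the members separated by library number instead, with number 1 higher.

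The other values were of either sign. Gadd45a differed by 0.77 ± 0.38 in choroid plexus cells, 0.11 ± 0.35 in arterial SMC and -0.35 ± 0.56 in EC with capillary markers. Gadd45g differed by 0.02 ± 0.17 in choroid plexus cells, -0.14 ± 0.26 in ependymal cells, -0.00 ± 0.27 in arterial EC and -0.20 ± 0.36 in venous EC. Gadd45b differed by -0.15 ± 0.20 in arterial SMC, 0.32 ± 0.42 in ependymal cells (0% of 4676 genes called), -0.29 ± 0.37 in EC with capillary markers, -0.18 ± 0.36 in arterial EC and 0.22 ± 0.42 in venous EC (0.513% of 5067 genes called). In ependymal cells CSD 1 held 447 CPM and CSD 2 held 95.4 CPM of Gadd45b, one on each side of the HC libraries. CSD 1 alone against both HC libraries gave 1.09 (adjusted p = 0.0126), and CSD 2 alone gave -1.12 (adjusted p = 0.0931). CSD 2 alone, the library that stood apart over all barcodes, gave -0.96 for Gadd45b in EC with capillary markers and -1.10 in arterial EC. In these fits the lone library is assumed to vary like the HC libraries, so they describe that library and not the condition. In astrocytes (0% of 970 genes called) only Gadd45g had enough counts, at 0.12 ± 0.64, and in T cells (0% of 693 genes called) no member passed the filter on low counts. Pericytes lacked a test for Gadd45a and Gadd45g, astrocytes for Gadd45a and Gadd45b, and ependymal cells and venous EC for Gadd45a.

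**Figure D4:**
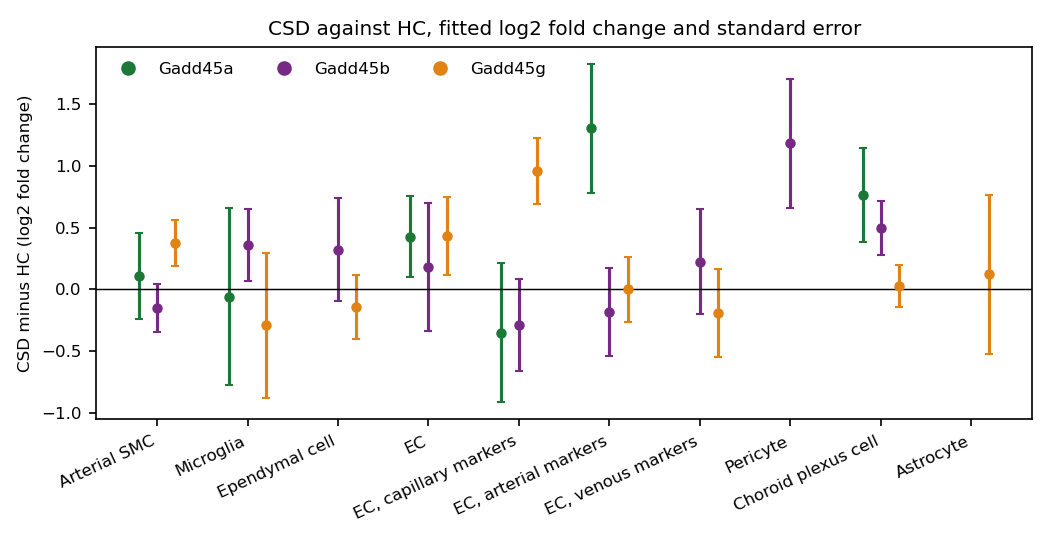
Fitted log2 fold change, CSD minus HC, of each Gadd45 gene that passed the filter on low counts in each class, with its standard error (bars) from 2 libraries per condition. The values run from -0.35 (Gadd45a in EC with capillary markers) to 1.30 (Gadd45a in arterial EC), and none passed the adjusted threshold.

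The members were also counted as the share of cells with a UMI. After thinning each cell to 500 UMIs, which sets all cells to the same depth, 26.3% and 28.3% of the CSD microglia and 23.8% and 23.3% of the HC microglia had a Gadd45b UMI. The difference was 3.69 percentage points, and the exact two-sided permutation test gave p = 0.333, the smallest that 2 against 2 libraries allow. Unthinned, the shares were 51.0%, 61.9%, 53.5% and 49.1% in CSD 1, CSD 2, HC 1 and HC 2, with overlap. In EC the thinned shares were 7.39%, 2.88%, 7.13% and 3.35% for Gadd45b (exact permutation p = 1) and 6.53%, 4.45%, 4.88% and 3.85% for Gadd45g (exact permutation p = 0.667). After the same thinning 0.428% to 1.55% of choroid plexus cells and 0% to 0.258% of astrocytes had a Gadd45b UMI, 2 classes in which its level lay under that of free RNA. Their median depth was 10508 to 25026 and 749 to 1229 UMIs per cell, against 864 to 1520 in EC and 1869 to 5043 in microglia, so neither is a measured background for EC or microglia.

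The genes around the family were described from lists. Over all genes in EC, edgeR called 9 of 10164 (0.0885%), all of them higher in CSD, 791 were at an unadjusted p under 0.05, and DESeq2 called 54. DESeq2 gave no adjusted p to 5715 of the 10164 genes, so its counts in EC rest on the others. Without CSD 1, which leaves CSD 2 alone in its arm, edgeR called 0 of 10612 genes in EC, with 1053 at an unadjusted p under 0.05, so each call below was lost there whatever the gene. Of the 18 partners and effectors of the Gadd45 proteins, 16 were tested in EC. Of these 11 lay higher in CSD, 2 were at an unadjusted p under 0.05 and DESeq2 called 1. By edgeR 1 passed, Cdkn1a, the cell cycle inhibitor p21 (1.5 ± 0.16, edgeR adjusted p = 0.0189, and 1.59 without CSD 1). The median of the list was 0.12, against 0.01 for all genes. Of 20 p53 targets, 19 were tested, 16 lay higher in CSD, 9 were at an unadjusted p under 0.05 and DESeq2 called 2. By edgeR 2 passed, Cdkn1a and Trp53inp1, a promoter of cell death and autophagy (1.74 ± 0.21, edgeR adjusted p = 0.0338, and 1.98 without CSD 1). The median was 0.45. Of 24 NF-kappaB regulators and targets, 17 were tested, 16 lay higher in CSD, 8 were at an unadjusted p under 0.05 and DESeq2 called 3. By edgeR 1 passed, the chemokine gene Cxcl1 (1.82 ± 0.19, edgeR adjusted p = 0.0189, and 1.91 without CSD 1). The median was 0.60. Of 19 glucocorticoid response genes, 18 were tested, 18 lay higher in CSD, 15 were at an unadjusted p under 0.05 and DESeq2 called 7. By edgeR 2 passed, Cdkn1a and Lcn2, an iron-binding acute phase protein (5.41 ± 0.35, edgeR adjusted p = 0.00212, and 5.65 without CSD 1). The median was 0.78. Of 10 other stress and arrest genes 8 were tested, 5 lay higher in CSD and 0 passed, with 2 at an unadjusted p under 0.05 and 1 called by DESeq2. Of 26 immediate-early and dissociation genes 25 were tested, 25 lay higher in CSD and 0 passed. There 19 were at an unadjusted p under 0.05, 5 were called by DESeq2, and the median was 0.57. The summed level of this list in EC was 24186 and 28786 CPM in CSD and 18049 and 20175 CPM in HC. Gadd45b in EC was high in CSD 1 and HC 1, and its relation to the list over libraries was not tested.

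In microglia none of the 6 lists held a gene that passed edgeR, and the lists' counts at an unadjusted p under 0.05 ran from 0 to 4. DESeq2 called 1 gene, of the glucocorticoid list. The medians ran from -0.06 to 0.42, the highest being that of the glucocorticoid list. The summed level of the 18 partners and effectors was 1291 and 1258 CPM in CSD 1 and HC 1. In CSD 2 and HC 2 it was 802 and 763 CPM, the split of libraries seen for Gadd45a and Gadd45g in microglia. The lists of p53 targets, immediate-early genes and other stress and arrest genes were also higher in both libraries numbered 1. Those of NF-kappaB and of the glucocorticoid response were not. Over 9887 genes, same-numbered libraries' deviations had a correlation of 0.45, so the split is not particular to the partners. Its share over all genes was not counted. The lists were chosen with earlier results of these data known, so their direction is no independent evidence.

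The members were next compared within a class. Cells of each library were ranked by the share of their UMIs in the immediate-early genes Fos, Fosb, Egr1, Jun, Junb and Ier2, which are induced within minutes by many stimuli, and the upper tercile was compared with the lower. In EC, Gadd45b was at 446, 145, 409 and 147 CPM in the upper tercile of CSD 1, CSD 2, HC 1 and HC 2 and at 43.1, 36.7, 65.2 and 49.1 CPM in the lower. Gadd45g was at 358, 184, 284 and 213 CPM against 55.0, 40.1, 45.6 and 29.4 CPM. Every upper tercile lay above every lower tercile for both genes, and the lower terciles were under the free RNA level. The differences were 2.53 ± 0.17 for Gadd45b (edgeR adjusted p = 1.23e-13) and 2.65 ± 0.14 for Gadd45g (adjusted p = 4.15e-16), where 13.8% of 7493 genes were called. Gadd45a was higher too (1.07 ± 0.32, adjusted p = 0.0214), but did not pass without CSD 1 (0.77, adjusted p = 0.224) or without HC 2 (0.98, adjusted p = 0.0539). The upper tercile was deeper, with a median of 1092 to 2087 UMIs per cell against 819 to 1300 in the lower. After thinning to 500 UMIs, 9.59% ± 5.26 of upper and 2.19% ± 0.84 of lower cells had a Gadd45b UMI (SD, n = 4).

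Microglia differed. By the same score, Gadd45b did not pass (0.12 ± 0.08, edgeR adjusted p = 0.340, 15.5% of 6971 genes called), with 861, 1185, 730 and 648 CPM in the upper and 798, 662, 743 and 733 CPM in the lower tercile. In each library the middle tercile, at 1198, 1243, 1235 and 801 CPM, held more than either end. Gadd45g was higher in the upper tercile (0.77 ± 0.12, adjusted p = 2.00e-08), at 179, 59.6, 261 and 59.0 CPM against 97.0, 50.5, 104 and 56.1 CPM, so that most of the difference lay in CSD 1 and HC 1. Gadd45a did not pass (0.61 ± 0.28, adjusted p = 0.127). Microglia were also ranked by the chemokine genes Ccl3, Ccl4, Ccl2 and Cxcl2 and the cytokine gene Il1a, which are targets of NF-kappaB. This ranking is called the chemokine score. By it, microglia of the upper tercile held more Gadd45b in each library, at 1030, 1315, 1110 and 942 CPM against 812, 582, 698 and 576 CPM (0.70 ± 0.07, edgeR adjusted p = 2.22e-20, 4.89% of 7062 genes called). Gadd45g did not pass by this score (0.04 ± 0.12, adjusted p = 0.914) and neither did Gadd45a (0.50 ± 0.28, adjusted p = 0.407). Thus Gadd45g passed by the immediate-early score and Gadd45b by the chemokine score. Whether the scores differ in their effect was not tested. The paper told microglia clusters of these same data apart by genes that include Ccl3, Ccl4, Il1a and Gadd45 (no member named). The rise of Gadd45b with the chemokine score is therefore no independent evidence. The terciles are ranges of a score and not cell types. The upper tercile by chemokine score had medians of 1829 to 5696 UMIs per cell and the lower 1695 to 2054.

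**Figure D5:**
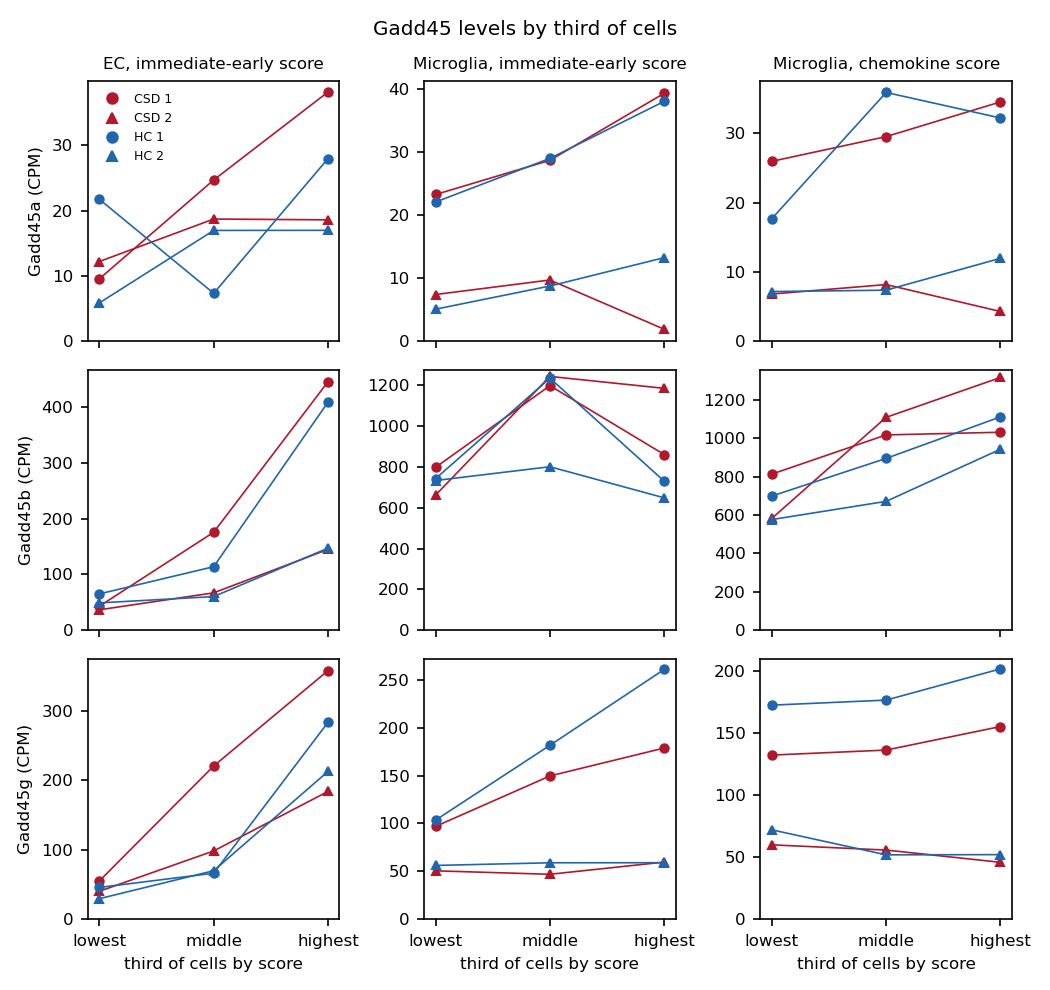
Level of each Gadd45 gene (CPM, linear axes from 0) in the lower, middle and upper tercile of EC by immediate-early score and of microglia by immediate-early and chemokine score. Each line joins the values of a library (red CSD, blue HC, circles number 1, triangles number 2). In EC Gadd45b stands at 36.7 to 65.2 CPM in the lower and 145 to 446 CPM in the upper tercile, while in microglia it is higher in the upper tercile by chemokine score and highest in the middle one by immediate-early score.

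It was also counted how often 2 members were found together in a single cell. Of 4930 EC, 290 had UMIs of both Gadd45b and Gadd45g, against 194 from independent shares within 4 bins of depth in each library, a ratio of 1.5 that ran from 1.30 to 2.05 over the libraries. The ratio was 1.48 for Gadd45a with Gadd45b and 1.41 for Gadd45a with Gadd45g. In microglia Gadd45b and Gadd45g were found together in 516 of 4250 cells against 483, a ratio of 1.07. In arterial SMC it was 245 of 492 cells against 228, also 1.07. Gadd45a with Gadd45b and with Gadd45g had ratios of 0.979 and 1.10 in microglia and 0.997 and 1.01 in arterial SMC. In choroid plexus cells these ratios were 1.31 and 1.01, and that of Gadd45b with Gadd45g was 1.03. The highest ratio that can be reached falls as the share of positive cells rises, so the ratios cannot be compared between classes. In arterial SMC of CSD 2, all 12 cells with Gadd45a also had Gadd45b, and the ratio was 1.08. Depth varies within a bin, and cells of 1 library are not replicates, so these ratios are a description.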

How the data were processed

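Libraries were made by the authors with a 3' single-cell kit (Chromium, version 3.1). The deposited values are UMI counts per gene and barcode, not normalized and without cell calling, made with Cell Ranger. Its version is given as 4.0 in the submitters' processing notes, which name the build GRCm38 (mm10), and the matrix headers name software version 3.1.0. Every column belonged to a library (0 others).

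Barcodes with at least 500 UMIs, at least 250 genes and at most 25% mitochondrial UMIs were kept as cells. A cell joined the class with the largest sum of marker UMIs, if that was at least 3 over at least 2 markers and at least 3 times the next. The 1020 cells with markers of several classes, which include doublets, and 558 with too few markers were left out. No doublet caller was run. Libraries shared 0 to 9 cell barcodes. Of the placed cells, 742 (5.78%) lay near the limit.

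Counts were summed per library and class and tested with edgeR 4.0.16 (quasi-likelihood, filterByExpr, TMM, Benjamini-Hochberg over all genes, threshold 0.05) in R 4.3.3. DESeq2 1.42.0 was an alternative. The SE is the absolute log2 fold change over the root of F. Shares used scipy 1.17.1, clustering scanpy 1.11.5. The edgeR test between CSD and HC was also run on simulated counts. These had the same variability for every gene and no library that stood apart, so the run does not carry over to these data. In bulk sums, fewer expressing cells and less RNA per cell cannot be told apart. Each library is a pool, so p-values between CSD and HC measure the spread between pools and not between mice. The fits of classes, EC subclasses and terciles had library as a block. Differences in level between pools are thus taken out of their p-values.

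Named were the 3 members in every class, the list genes called in EC or microglia, and the 5 genes most like each member over 8 class means, among genes with at least 50 CPM in a class. The members, lists, markers and scores were chosen with earlier results of these data known. Other choices tried were RLE scaling, no filter on low counts, at least 1000 UMIs, a stricter gate (5 UMIs, 3 markers, 5 times), classes from clustering, a complexity (log of genes over log of UMIs) of at least 0.8, the cells split at the median score, unthinned shares, the replicate number as a block and leaving out each library.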

Additional observations from a re-analysis of the deposited data

Results flagged for a closer look

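In some classes the libraries of CSD and HC did not overlap, and the direction was opposite in 2 classes for the same gene. The difference between the classes was not tested in any of these cases, and no value passed a test. Non-overlap of 2 libraries against 2 has an exact two-sided permutation p of 0.333, and its share over all genes was not counted. Gadd45g in pericytes and Gadd45a in T cells and astrocytes had too few counts to be tested between CSD and HC. For Gadd45g the mean level in CSD was 123 CPM above that in HC in arterial SMC and 53.5 CPM above it in EC with capillary markers, while in pericytes the difference was -20.6 CPM, from 15 UMIs in all. For Gadd45a it was 22.0 CPM in arterial EC and 24.2 CPM in T cells, from 3 UMIs, while in astrocytes it was -15.0 CPM, from 2 UMIs.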

How the results depend on the processing

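Over all results and alternatives 645 values kept their direction and their side of the threshold and 55 changed sign, none of them in a result that passed the test. Of the others 13 no longer passed, 13 passed only under the alternative, and 2 counts of calls moved. No alternative other than leaving out a library called a member between CSD and HC, and with a library left out, which leaves 1 library in an arm that is assumed to vary like the other condition, 0 to 2 were called. On the log2 scale, CSD minus HC, Gadd45g was 0.029 in arterial EC with no filter on low counts, -0.048 in astrocytes and -0.00067 in choroid plexus cells with classes from clustering, and -0.081 in choroid plexus cells with the complexity filter. Against EC, Gadd45g in astrocytes was 0.10 with RLE scaling and 0.051 with DESeq2. Gadd45b in ependymal cells passed with RLE scaling (0.54) and with no filter (0.43), and Gadd45a in astrocytes (-2.08) and Gadd45g in microglia (-0.48) passed with no filter. In cells with at least 1000 UMIs these last were -2.88 and -0.54, both passing, and Gadd45a in ependymal cells was -0.083. With the stricter gate Gadd45a passed in arterial SMC (0.74) and was -0.97 in ependymal cells. Gadd45g by chemokine score in microglia was -0.027 in cells with at least 1000 UMIs, and Gadd45a by immediate-early score in EC was 0.58 with cells split at the median score and no longer passed. The share of EC with Gadd45b differed by 0.80 percentage points unthinned and 0.13 in cells with at least 1000 UMIs. With classes from clustering Cdkn1a, Cxcl1 and Trp53inp1 were 1.51, 1.65 and 1.74 in EC and did not pass (edgeR adjusted p = 0.0522, 0.0695 and 0.0720), nor did Cdkn1a (1.37, adjusted p = 0.0657) and Trp53inp1 (1.78, adjusted p = 0.0650) in cells with at least 1000 UMIs. Of all genes in EC 2 and 4 were called in these settings, against 9. The cause was not tested in any of these cases.

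Leaving out each library in turn gave, for CSD minus HC, Gadd45b in EC -0.81 to 1.03, Gadd45g in EC -0.20 to 0.85, Gadd45a in microglia -1.48 to 1.02, Gadd45g in microglia -1.07 to 0.72, Gadd45b in arterial SMC -0.32 to 0.062, Gadd45g in astrocytes -0.26 to 0.69, Gadd45a and Gadd45g in choroid plexus cells -0.19 to 1.32 and -0.12 to 0.17, and Gadd45b and Gadd45g in ependymal cells -1.12 to 1.09 and -0.43 to 0.28. In EC with capillary markers Gadd45a ran from -0.83 to 0.10, Gadd45b from -0.96 to 0.45 and Gadd45g from 0.66 to 1.24, in arterial EC Gadd45b from -1.10 to 0.34 and Gadd45g from -0.37 to 0.28, and in venous EC Gadd45b from -0.70 to 1.24 and Gadd45g from -0.83 to 0.34. Against EC, Gadd45a ran from -3.08 to -1.33 in astrocytes, -0.31 to 0.33 in ependymal cells and -0.14 to 0.41 in microglia, Gadd45g from -0.69 to -0.22 in microglia and Gadd45b from -1.95 to -0.82 in pericytes. Against EC with capillary markers, venous EC ran from -0.0023 to 0.50 for Gadd45g and -0.0039 to 0.12 for Gadd45a. The CSD effect in microglia minus that in EC ran from -1.42 to 0.084 for Gadd45a and -0.74 to 1.20 for Gadd45b. Between terciles, Gadd45b by immediate-early score in microglia ran from -0.090 to 0.22, Gadd45g by chemokine score from -0.079 to 0.13 and Gadd45a in EC from 0.77 to 1.40. The share of positive cells, in percentage points, ran from -2.36 to 2.15 for Gadd45b in EC, -0.63 to 0.54 for Gadd45a in microglia and -3.54 to 1.54 for Gadd45g in microglia.

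The labels number the libraries of each condition 1 and 2 and do not say that a number marks a shared day or batch. With the replicate number as a block, 0 of 24 tests of a member passed, with 5 at an unadjusted p under 0.05, and the block changed no call of a member. Over all genes the block called 135 in EC against 9, 8 in microglia against 0, 35 in choroid plexus cells against 2, 15 in arterial EC against 4 and 40 in venous EC against 26. The other settings, without leaving out a library, called 2 to 54 in EC, 0 to 22 in microglia and 2 to 40 in choroid plexus cells. The correlation of same-numbered libraries' deviations ran from -0.0027 in EC with capillary markers to 0.45 in microglia. Depth limits Gadd45a most, with 166 UMIs in 4930 EC and 2 to 7 in T cells, astrocytes and pericytes.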
